A study of Homo sapiens with 8 samples.

Results

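The comparison described here is the knockdown of MITF in the human melanoma line SK-MEL-5, which expresses pigment genes. It sets 2 arrays of cells given an siRNA against MITF (siMITF) against 2 arrays of cells given a control siRNA (siCtrl), out of 8 arrays in the series. The other 4 arrays hold cells given the CDK7 inhibitor THZ1 at 250 nM for 6 h, or its solvent DMSO, and are used for the shared estimate of spread and for 1 contrast. All cells were of the same line, grown in the same medium, and biotin-labelled RNA was hybridized to Affymetrix arrays with ERCC spike-in RNA added per cell. The siRNA sequences and the time from transfection to harvest are not given in the sources used here, and a single cell line was used. The labels leave unsaid whether arrays within a group stem from different cultures, so the p-values reflect array-to-array spread only, which may be technical, and their number limits the precision. The genes were chosen by a filter on signal alone: of 18244 genes with a probe set that carried 1 symbol, the 11947 whose brightest probe set had a mean log2(signal + 16) at or above that of a signal of 39.2 were tested.

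MITF is a basic helix-loop-helix leucine zipper factor that binds E-box DNA as a dimer, alone or with its relatives TFEB, TFE3 and TFEC. In melanocytes it drives the enzymes that make melanin and the proteins that build and move melanosomes, which are organelles related to lysosomes. It is also known to act on genes of the cell cycle, DNA repair, survival and mitochondrial metabolism. Melanoma cells with little MITF are often described as slow-cycling and invasive.

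Signals are given as deposited, in array units normalized to cell number by the submitters. Changes are log2 values of siMITF minus siCtrl, computed on log2(signal + 16), so changes of dim genes are understated. The deposited scale showed a shift shared by nearly all genes: the median gene fell by 0.63, and 97.2% of tested genes lay below 0. The array offsets did not overlap between the groups, but an exact permutation test of 2 against 2 arrays cannot give a two-sided p below 0.33, and that was its p. On the same arrays 17 bright ERCC probe sets had medians of 3122 and 3105 in the siCtrl group and of 3363 and 3365 in the siMITF group, a log2 difference of 0.11. The 9 bacterial hybridization controls, transcripts added after labelling, had medians of 746 and 902 with siCtrl and 540 and 426 with siMITF, a log2 difference of -0.77, so they were lower with siMITF by about as much as the genes. The part of the scaling in the shared shift was not tested, and fewer cells and less RNA per cell cannot be told apart here. Changes are therefore given relative to the median gene, after centring each array, unless the deposited scale is named.

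By limma, with Benjamini-Hochberg adjusted p under 0.05 over all tested genes, 2946 genes (24.7%) fell and 2330 (19.5%) rose relative to the median gene. On the deposited scale 7569 (63.4%) were lower and 39 (0.326%) higher. The 2946 falls were all lower on the deposited scale too, and the 39 deposited rises were all among the 2330. All 2946 falls and all 39 deposited rises also had both siMITF arrays outside the siCtrl range on both scales. Such separation, where given below, therefore does not set 1 called gene apart from the others. Leaving out array siCtrl 2 or array siMITF 2 gave 1896 and 1903 falls relative to the median gene and 1745 and 1824 deposited falls. Leaving out siMITF 2 gave 1349 relative rises, and without siCtrl 1 or siMITF 1 the deposited rises were 15. With each gene's own variance limma called 0 genes in either direction on the deposited scale, where 5705 genes had an unadjusted p under 0.05. The other 2291 genes that rose relative to the median gene had no deposited call. For them a rise means a smaller decrease than that of most genes, or a deposited increase that was not called. Signal moved with the direction of the calls, as the plot of change against signal shows. Of 5 equal bins of tested genes by signal, the dimmest had a median change of 0.21, with 35.6% called higher and 0.293% lower. The brightest had -0.22, with 8.45% called higher and 49.5% lower. The part of signal level in rises of dim families was not tested, and several families below are given with their median signal and their counts after quantile normalization, which forces all arrays to 1 distribution.

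Which genes counted as rises also moved with the set of genes tested, since that set fixes the median gene. The median gene fell by 0.45 with no filter on signal. Of the 2330 rises, 621 were called with no filter, 1107 with a filter at the 20th percentile and 1218 with one at the 60th, which tests fewer genes. The 2946 falls were all called with no filter and at the 20th percentile. Of 222 counts for the gene lists used here, 105 moved by over 1.5 times with no filter and 92 after quantile normalization. Leaving out 1 array moved 32 (siCtrl 1), 71 (siCtrl 2), 45 (siMITF 1) or 80 (siMITF 2) of them.

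**Figure D1:**
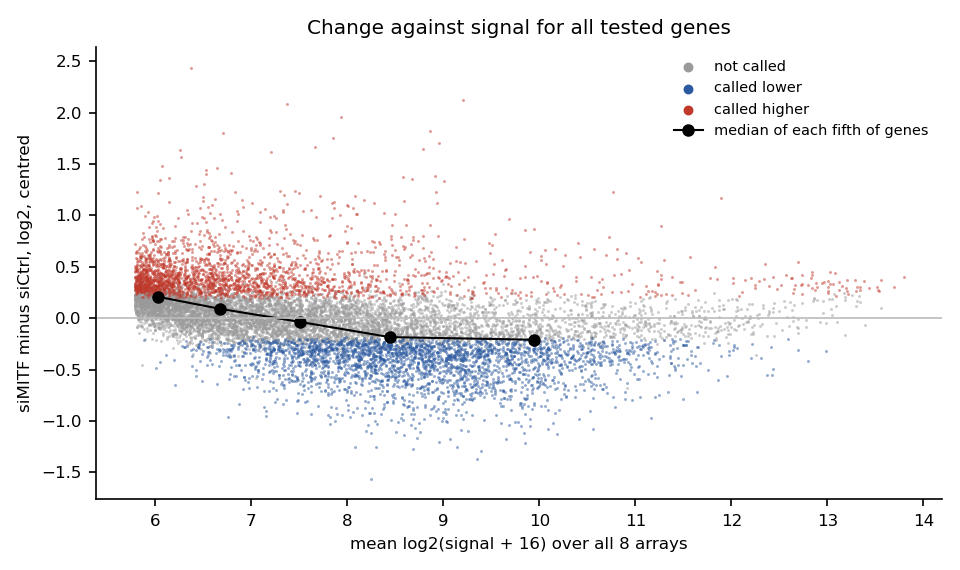
Change of siMITF against siCtrl (log2, each array centred on its median gene, y axis) against mean log2(signal + 16) over 8 arrays (x axis) for 11947 tested genes; blue points were called lower, red higher and grey neither by limma. Black points join the medians of 5 equal bins of genes by signal, which run from 0.21 in the dimmest to -0.22 in the brightest.

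MITF itself gave signals of 3436 and 3936 with siCtrl and 1747 and 1168 with siMITF. Both siMITF arrays lay below both siCtrl arrays on either scale. Relative to the median gene MITF changed by -0.72 (SE 0.096, n = 2 per group, limma adjusted p = 0.000325), and -1.35 on the deposited scale (adjusted p = 1.62e-06). The other MITF probe set above the cut gave -0.74 and -1.37. Of its relatives, TFEB was called higher at 0.31, with deposited signals of 83.8 and 107 with siCtrl and 75.2 and 70.5 with siMITF, a call lost with no filter or one at the 20th percentile, with its own variance, without siCtrl 1 and without siMITF 2. TFE3 was at 0.18 with no call. TFEC lay below the signal cut on every array.

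Promoter sequence is shown for 3 pigment and lysosome genes that fell, because their windows hold the E-box that MITF is known to bind. The promoters are stretches of 160 bases, from 150 before to 10 after the annotated start, read 5′ to 3′ on the gene's strand from RefSeq (GRCh38.p14). Capitals mark TCATGTG or TCACGTG read on either strand.
GPR143, chrX:9765838-9765997, minus strand: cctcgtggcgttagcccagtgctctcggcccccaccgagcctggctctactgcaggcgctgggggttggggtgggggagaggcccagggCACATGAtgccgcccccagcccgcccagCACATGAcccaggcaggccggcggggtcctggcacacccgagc
ATP6V0D1, chr16:67481148-67481307, minus strand: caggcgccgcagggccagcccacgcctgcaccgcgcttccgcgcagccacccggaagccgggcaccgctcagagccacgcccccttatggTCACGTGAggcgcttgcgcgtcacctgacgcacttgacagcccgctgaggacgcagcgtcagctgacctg
RAB17, chr2:237590725-237590884, minus strand: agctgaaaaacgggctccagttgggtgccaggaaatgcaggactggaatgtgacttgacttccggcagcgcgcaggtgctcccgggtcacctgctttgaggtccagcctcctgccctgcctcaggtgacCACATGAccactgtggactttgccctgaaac
GPR143 holds the letters as CACATGA, 61 and 33 bases before its start, RAB17 holds them once, 21 bases before, and ATP6V0D1 has the palindromic form, 60 bases before. Windows of 300 bases (250 before to 50 after the start) were found for 9808 of the 11947 tested genes. Either form occurred in 6.68% of all 27305 windows and 7.57% of tested genes. The share was 9.57% of 2477 windows of genes that fell, 6.9% of those with no call and 6.85% of those that rose. It was 6 of 10 windows in the list of melanin enzymes and melanosome structure, 10 of 25 for lysosomal hydrolases, 5 of 15 for melanosome biogenesis and 4 of 12 for the V-ATPase. It was 1 of 11 for melanosome transport. A match describes letters and not a bound site.

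Most genes for moving melanosomes fell, while most genes for melanin itself kept close to the median gene. Of 13 tested transport genes, 9 fell and 1 rose (median -0.49, against 0.0014 over all tested genes). RAB27A, the small GTPase that tethers melanosomes to myosin, had signals of 1236 and 1468 with siCtrl and 472 and 316 with siMITF. Both siMITF arrays were far below the siCtrl arrays, a change of -1.13 (SE 0.092, limma adjusted p = 2.8e-05). Its partners in that bridge fell too, with MLPH at -0.61 and the motor MYO5A at -0.50. Of 5 other MLPH probe sets, 2 had the opposite sign. SYTL2, another RAB27A effector, changed by -0.76, and RAB38 and RAB17, which act in traffic to the melanosome and to dendrites, by -0.49 and -0.47. RAB32, which sorts cargo to the melanosome, and DYNC1I1, a dynein chain, had the lowest values of the list (-1.21 and -1.25). MREG, a melanosome regulator, was at -0.43, and DCTN1, a dynactin subunit, was the list's rise (0.57).

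Building the organelle followed the same direction. In the list of BLOC, AP-3 and HPS genes, whose products sort cargo from endosomes, 12 of 21 fell and 1 rose (median -0.32). HPS4, part of the exchange factor for RAB32 and RAB38, went from 486 and 602 to 233 and 166, a change of -0.75 (limma adjusted p = 0.000156). VPS18, a tethering complex subunit, and AP3M1, an adaptor subunit, both had -0.55. VPS16 rose by 0.26. After quantile normalization 8 of these genes fell and 3 rose.

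The melanin list split. The transporter SLC45A2, needed for melanosome pH, had signals of 1465 and 1734 with siCtrl and 540.1 and 416 with siMITF, a change of -1.08 (limma adjusted p = 1.08e-05). The ocular albinism receptor GPR143, whose promoter is shown above, went from 1097 and 1372 to 464 and 368 (-0.90). QDPR, which regenerates the tetrahydrobiopterin cofactor, was at -0.69, and the exchanger SLC24A5 at -0.55. Each of these 4 fell with no overlap between the groups on either scale, as did all 2946 called falls. The other 8 of 12 tested genes did not fall relative to the median gene. On the deposited scale 10 of the 12 were called lower (median -0.67). The fibril protein PMEL had 8218 and 8831 and 6037 and 4748 (-0.036), MLANA -0.14, OCA2 0.097 and the enzyme TYRP1 0.13, with no call. Tyrosinase, TYR, was called higher at 0.36 relative to the median gene, with deposited signals of 3758 and 4756 with siCtrl and 3969 and 3090 with siMITF that overlapped. Another TYR probe set had the opposite sign (-0.0041). TRPM1, a channel gene of melanocytes, changed by -0.89.

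**Figure D2:**
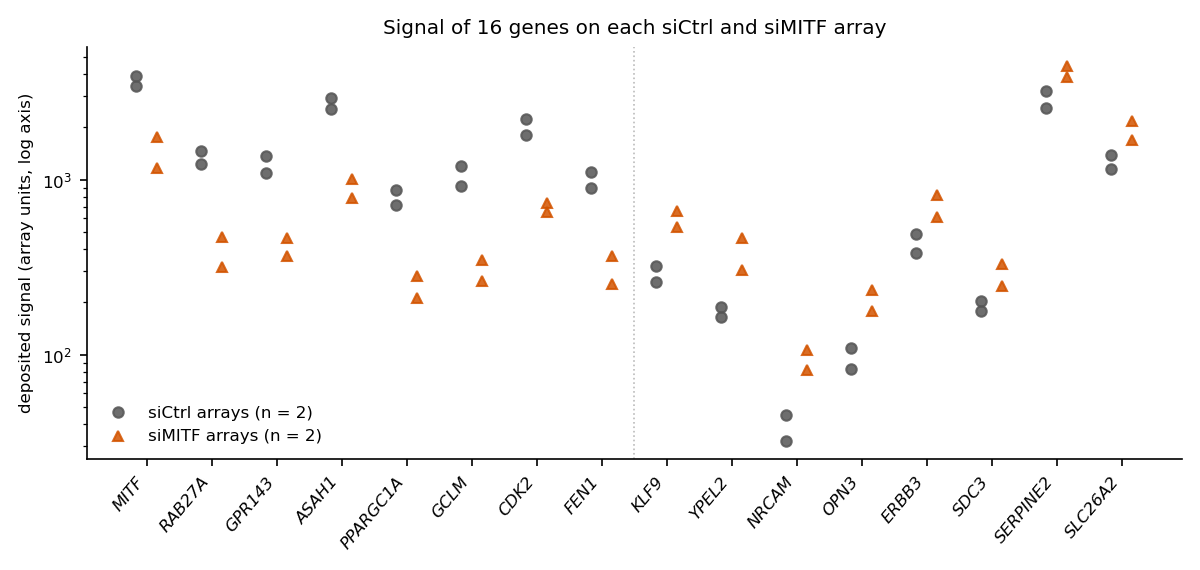
Deposited signal (log axis) of 16 genes named in the text on each siCtrl array (grey circles, n = 2) and each siMITF array (orange triangles, n = 2). Left of the dotted line siMITF lies below siCtrl for each gene, from MITF to FEN1, and right of it siMITF lies above siCtrl for each gene, from KLF9 to SLC26A2.

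Relative to the median gene, most lineage factors upstream of or beside MITF did not fall. Of 18 tested, 8 rose and 1 fell (median 0.12, deposited median -0.51). ERBB3, the neuregulin receptor of neural crest and melanocyte cells, had signals of 382 and 486 with siCtrl and 822 and 613 with siMITF. It was above the control arrays on both scales, at 1.33 relative to the median gene and 0.70 on the deposited scale (limma adjusted p = 0.0103). Of 2 other ERBB3 probe sets above the cut, 1 was at only 0.077 relative to the median gene, a decrease as deposited, and 1 at 1.59. The homeobox gene DLX5 changed by 0.98, the neural crest factor FOXD3 by 0.79, PAX3, an activator of MITF transcription, by 0.53, and SOX10, its partner, by 0.52. Another SOX10 probe set had the opposite sign (-0.37). On the deposited scale these 4 were at 0.35, 0.16, -0.10 and -0.11. IRF4, a pigmentation factor, was the fall (-0.43), and SOX9, ZEB2 and SNAI2 had no call at 0.018, 0.11 and 0.12. On the deposited scale 8 of the 18 were called lower and 1 higher. Quantile normalization gave 10 rises and 0 falls, and no filter gave 5 rises.

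Genes of the undifferentiated, invasive state moved unevenly: 10 of 24 tested rose and 2 fell (median 0.20). The Wnt antagonist DKK1 had signals of 107 and 135 with siCtrl and 209 and 156 with siMITF, a change of 1.16. The matrix glycoprotein THBS1 was at 1.14 and the stem cell factor SOX2 at 0.90. The YAP target genes CCN1 and CCN2 were at 0.57 and 0.33, JUN at 0.44, and the intermediate filament gene NES fell (-0.31). VIM, TNC and NGFR had no call at 0.20, 0.039 and 0.12. The defining receptors AXL and EGFR and the ligand WNT5A lay below the signal cut. None of the list was called higher on the deposited scale, where the median was -0.43, and 4 rose and 4 fell with no filter.

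Lysosomes share their ancestry and E-box control with melanosomes, and their parts did not move as 1 group. Of 19 tested subunits of the V-ATPase, the proton pump of both organelles, 12 fell and 2 rose (median -0.30). The median signal of these subunits was 1390, in the brightest bin, where 49.5% of all tested genes were called lower (median -0.22). After quantile normalization 10 fell and 3 rose. ATP6V0D1, shown above, had 1253 and 1460 with siCtrl and 560 and 437 with siMITF (-0.79, limma adjusted p = 5.51e-05), and ATP6V1H had -0.75. Of 6 other ATP6V0D1 probe sets, 1 had the opposite sign. Among 36 hydrolases 6 fell (16.7%) and 7 rose (19.4%), against 24.7% and 19.5% over all tested genes (median of the hydrolases -0.039). With no filter 14 fell and 3 rose. The acid ceramidase ASAH1 went from 2553 and 2928 to 1007 and 787, with no overlap, a change of -0.97 (SE 0.074, limma adjusted p = 2.27e-05). The cathepsins CTSL and CTSD were at -0.47 and -0.38. In the other direction GAA, which degrades glycogen, was at 0.85, MAN2B1, a mannosidase, at 0.69 and the cathepsin CTSK at 0.50. Among 20 membrane proteins, 7 fell, led by the calcium channel MCOLN1 (-0.48), and 2 rose, and the falls were 4 without siCtrl 2 or siMITF 1 and 3 without siMITF 2.

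ASAH1 was 1 of 9 sphingolipid genes that fell, out of 23 tested, and 4 rose (median -0.07). The rises were 2 without siCtrl 2 and 2 with no filter. SPHK1, which makes sphingosine 1-phosphate, changed by -0.89, UGCG, which makes glucosylceramide, by -0.78, and CERK, the ceramide kinase, by -0.64. ST8SIA1, the GD3 synthase, had signals of 38.5 and 43.4 with siCtrl and 74.6 and 55.7 with siMITF. The change was 1.14 relative to the median gene and 0.50 as deposited.

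The nutrient-sensing branch of mTOR signalling, which sits on the lysosome, showed both directions. Of 31 tested, 11 fell and 7 rose (median -0.12). The falls were led by Rag GTPases, which recruit mTORC1, with RRAGC at -0.73 and RRAGD at -0.64, by TBC1D7, a subunit of the TSC complex (-0.60), and by FNIP2, a folliculin partner (-0.57). RRAGD had signals of 1689 and 1777 with siCtrl and 778 and 640.3 with siMITF. The largest rises were inhibitors of the pathway: DDIT4, with 369.9 and 507 and 789.5 and 693, a change of 1.38, SESN2 (1.0) and TSC2 (0.58), beside DEPTOR (1.80). DEPTOR and DDIT4 were higher on the deposited scale as well. The autophagy list was near the shares over all tested genes, which were 24.7% lower and 19.5% higher. In it 9 of 38 fell (23.7%), among them the receptors OPTN (-0.55) and SQSTM1 (-0.50), and 7 rose (18.4%). These became 5 falls without siCtrl 2 or siMITF 2, 3 rises without siCtrl 1 and 4 rises without siMITF 1 or siMITF 2. After quantile normalization 13 of the autophagy genes rose.

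Genes of the citrate cycle mostly fell, and those of mitochondrial biogenesis were split. PPARGC1A, the coactivator of mitochondrial biogenesis that MITF is known to drive, had signals of 712 and 877 with siCtrl and 282 and 211 with siMITF. The groups stood apart on both scales, with a change of -1.0 (SE 0.073, limma adjusted p = 1.91e-05). In its list 9 of 18 fell and 3 rose, with the fusion gene OPA1 at -0.72 and the mitochondrial DNA factor TFAM at -0.46, of whose 2 other probe sets 1 had the opposite sign. The median signal of the list was 268, in a bin where 43.7% of all tested genes were called lower. After quantile normalization 3 of the list fell and 3 rose. The count of falls was 5 without siCtrl 2 and 5 without siMITF 2. Of 25 genes of the citrate cycle and pyruvate dehydrogenase, 17 fell and 1 rose (median -0.31), led by IDH3A, an isocitrate dehydrogenase subunit (-0.83), DLAT of the pyruvate complex (-0.61) and SUCLA2 (-0.60). The rise was PDK4, a kinase that switches pyruvate dehydrogenase off (0.47). The median signal of these 25 genes, of which 68% fell, was 955, in the brightest bin. In that bin 49.5% of all tested genes were called lower and the median was -0.22. After quantile normalization 11 of the 25 fell and 2 rose.

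The respiratory chain changed less. Falls were 11 of 36 in complex I (median -0.14), 6 of 12 in complexes II and III (-0.22), 3 of 13 in complex IV (-0.0093) and 5 of 18 in ATP synthase (-0.084). Without 1 library the falls were 3 to 7 in complex I and 1 to 2 in ATP synthase, and in complex IV 0 without siCtrl 2 or siMITF 1 and 1 without siMITF 2, and after quantile normalization complex I had 1 fall and 5 rises. The siCtrl and siMITF arrays each had this effect when left out. Mitochondrial ribosomal proteins fell in 44 of 76 and rose in 0 (median -0.25), with MRPL37 at -0.70 and MRPL12 at -0.64, and 18 fell after quantile normalization. These proteins are encoded in the nucleus and have a median signal of 735, in the range where falls were common.

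Glutathione and thioredoxin genes that answer to NRF2 fell in 9 of 18 and rose in 1 (median -0.23). Their median signal was 1120, in the brightest bin, where 49.5% of all tested genes were called lower and the median was -0.22. The list was thus near the share for genes of its signal. After quantile normalization 6 fell and 1 rose. GCLM, the modifier subunit of the enzyme that limits glutathione synthesis, had signals of 924 and 1199 with siCtrl and 347 and 263 with siMITF, a change of -1.12 (SE 0.091, limma adjusted p = 2.76e-05). Both siMITF arrays were below both control arrays on either scale. OSGIN1 was at -1.04, the sulfiredoxin SRXN1 and the cystine importer SLC7A11 both at -0.83, and glutathione reductase GSR at -0.58. NFE2L2, which encodes NRF2, changed by -0.24, and NQO1 by -0.027, the latter with no call. The ferritin light chain FTL was the rise (0.29).

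Genes of DNA replication and cell division fell most widely. Among lists with at least 4 tested genes, the 5 with the largest share of falls were mitotic kinases and spindle, replication, kinetochore, spindle checkpoint and deoxynucleotide synthesis, and no tested member of these 5 rose. Of 50 replication genes 44 fell (median -0.56). FEN1, the flap endonuclease that trims Okazaki fragments, had signals of 898 and 1100 with siCtrl and 368 and 254 with siMITF (-1.02, SE 0.099, limma adjusted p = 6.51e-05). PRIM1, a primase subunit, CDC45 of the helicase and ORC6 of the origin complex were at -1.02, -1.0 and -0.99. Among 12 genes that make deoxynucleotides 9 fell (median -0.68), with thymidine kinase TK1 at -0.90 and both main ribonucleotide reductase subunits, RRM2 and RRM1, at -0.86 and -0.85. RRM2B, the subunit used outside S phase, was at 0.045 with no call.

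The machinery of mitosis had the lowest median of those lists. Of 29 genes for mitotic kinases and the spindle, 26 fell (median -0.80). KIF23, a kinesin of the midbody, had signals of 379 and 461 with siCtrl and 146 and 114 with siMITF (-0.95). CDCA8, a subunit of the chromosomal passenger complex with AURKB, was at -0.96, AURKB at -0.87 and the spindle factor TPX2 at -0.86. PLK1 changed less (-0.44), and the spindle pole protein NUMA1 had no call (0.18). Kinetochore genes fell in 27 of 34 (median -0.60), with CENPN, which binds the centromeric nucleosome, at -1.01 and the centromeric histone CENPA at -0.80. The checkpoint protein MAD2L1 was at -1.0 and BUB1B at -0.74, in a list where 22 of 29 fell (median -0.29). Subunits of the anaphase-promoting complex ranged from CDC16 (-0.51) to ANAPC2, which had no call (0.17). The checkpoint count was 13 without siCtrl 2 and 14 without siMITF 2. The cohesion factors CDCA5 and ESCO2 were at -1.11 and -1.05 and the condensin subunit SMC2 at -0.99, while the cohesin subunits RAD21 and STAG2 had no call (-0.059 and -0.13). PBK, SHCBP1, DEPDC1 and DSCC1, ranked among the 24 strongest falls that passed on both scales, are also known as genes of dividing cells. They changed by -1.18, -1.07, -1.10 and -1.11.

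Promoters of 3 of these genes are shown because mitotic genes are known to share a pair of elements, the CCAAT box and the cell cycle homology region, here searched as CCAAT with TTTGAA or TTCGAA on either strand. Capitals mark the matches, and build and window are those given above.
KIF23, chr15:69414199-69414358, plus strand: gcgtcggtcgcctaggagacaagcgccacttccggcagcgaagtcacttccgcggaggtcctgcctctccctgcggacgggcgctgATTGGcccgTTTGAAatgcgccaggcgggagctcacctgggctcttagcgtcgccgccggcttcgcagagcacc
CENPN, chr16:81007064-81007223, plus strand: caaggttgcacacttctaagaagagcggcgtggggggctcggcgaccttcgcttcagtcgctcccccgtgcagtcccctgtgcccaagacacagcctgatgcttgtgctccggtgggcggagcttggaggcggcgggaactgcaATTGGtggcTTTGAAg
CDCA8, chr1:37692366-37692525, plus strand: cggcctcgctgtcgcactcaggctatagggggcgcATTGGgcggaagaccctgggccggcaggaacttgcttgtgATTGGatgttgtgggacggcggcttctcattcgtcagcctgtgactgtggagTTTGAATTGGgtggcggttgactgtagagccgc
In KIF23 an ATTGG 64 bases before the start is followed by TTTGAA 55 bases before it. CENPN holds ATTGG 6 bases before the start and TTTGAA just after it. CDCA8 has ATTGG 115, 75 and 18 bases before the start, the last overlapping TTTGAA. The CCAAT box together with either hexamer occurred in 6.58% of all windows and 4.72% of tested genes. It was found in 14 of 24 windows of mitotic kinase and spindle genes and 9 of 29 of kinetochore genes, but in 1 of 43 of replication genes. The reverse held for the E2F-type octamers TTTCGCGC, TTTGGCGC and TTTCCCGC, which were in 19 of 43 replication windows, 1 of 24 mitotic kinase windows and 4.64% of tested genes. Both groups of genes fell.

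Cyclins, CDKs and their partners mostly fell. Of 20 cyclins, CDKs and their activators, 13 fell and 1 rose (median -0.46). CDK2, a known direct target of MITF, had signals of 1792 and 2233 with siCtrl and 738 and 658 with siMITF, with the groups apart on both scales (-0.87, SE 0.081, limma adjusted p = 5.39e-05). CKS1B, a CDK subunit, was at -1.04, the cyclins CCNA2 and CCNB2 at -0.96 and -0.91, and CDK4 at -0.79. CDK6, CCND1 and CCND3 had no call (-0.052, 0.086 and -0.019), and CCND2 rose (0.75). After quantile normalization CDK6 and CCND3 were called higher (0.21 and 0.24). Of the CDK inhibitors, CDKN1C (p57) went from 169 and 204 to 297 and 242 (1.13), CDKN1A (p21) was at 0.53, and CDKN1B (p27) had no call (0.15). In the list of E2F, RB and DREAM genes, which regulate cell cycle transcription, 10 of 20 fell, 9 had no call and 1 rose (median -0.24). Among the falls were MYBL2 at -0.94, E2F3 at -0.72 and FOXM1 at -0.59. The rise was RBL2 (p130), of the repressive DREAM complex (0.37). The part of these factors in the falls of other genes was not tested.

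The replication-dependent histone genes that passed the signal cut, which are expressed in S phase, mostly did not fall with the other genes of that phase. Of 61 replication-dependent histone genes, 42 lay below the signal cut. Of the 19 tested, 10 rose and 2 fell relative to the median gene (median 0.32). On the deposited scale 6 of the 19 were called lower and 2 higher (median -0.31). The median signal of the 19 was 97.4, and 8 rose after quantile normalization. H3C4 had signals of 65.5 and 78.6 with siCtrl and 149.5 and 122 with siMITF (1.42, and 0.78 on the deposited scale), and H2AC11 and H2AC6 were at 1.09 and 1.07. These transcripts normally lack a poly(A) tail, and the labelling was primed with oligo(dT), which captures polyadenylated forms. Copies of these genes are close in sequence and a probe set may detect several. The variants H2AX and H2AZ2 were at -0.70 and -0.39, both called lower. The chaperone ASF1B, the assembly factor CHAF1B and the methylation factor UHRF1 were at -0.71, -0.68 and -0.57, and EZH2, the Polycomb methyltransferase, at -0.74.

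Repair and checkpoint genes fell in part. In homologous recombination and the Fanconi pathway 13 of 29 fell and 3 rose (median -0.21). USP1, the deubiquitinase of the pathway, RAD51AP1 and BRCA1 were at -0.86, -0.80 and -0.59, and FANCL and XRCC3 were at 0.53 and 0.47. The kinase CHEK1 was at -0.67, and ATM and ATR had no call. Of 23 p53 targets 11 rose and 3 fell (median 0.20). PLK2 led them, from 380.2 and 476 to 754 and 565 (1.23), and it was higher on the deposited scale too (0.60). Its 3 other probe sets above the cut gave smaller changes, from 0.51 to 0.80 relative to the median gene, and the lowest was a decrease as deposited. MDM2, a standard readout of p53, was at 0.004 with no call, and GADD45A at -0.16, also with no call. The p53 rises numbered 7 without siCtrl 2, 6 without siMITF 2 and 5 with no filter.

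Survival genes included BCL2A1, a BCL2 relative that MITF is known to drive, with signals of 638 and 749.7 with siCtrl and 280 and 205 with siMITF (-0.84, limma adjusted p = 6.74e-05). BCL2L2 was at -0.57, while BCL2, MCL1 and BIRC7 had no call (0.14, 0.18 and -0.23), though MCL1 was called lower with the mean of its probe sets (-0.23). Of 20 death-promoting genes 8 fell, led by CASP9 (-0.66), and 5 rose, with BAX at 0.34 and another BAX probe set at the opposite sign (-0.16). The falls numbered 4 without siMITF 1 and 5 without siCtrl 2 or siMITF 2, and the rises 2 without siMITF 1, 3 without siCtrl 1 and 0 without siCtrl 2 or siMITF 2 or with no filter.

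Cytosolic ribosomal protein genes rose relative to the median gene in these tested genes, and proteasome genes fell. Of 69 cytosolic ribosomal protein genes 50 rose relative to the median gene and 3 fell (median 0.29), and none was higher on the deposited scale (median -0.34). RPL34, for example, went from 4544 and 5080 with siCtrl to 4924 and 4031 with siMITF, which overlap, a relative change of 0.52. These are among the brightest probe sets, with a median signal of 7810. Among genes with a mean signal of at least 4000, 50 of 63 ribosomal protein genes rose, against 15 of 113 others (13.3%), whose median change was 0.0024. The 50 rises of the whole list became 14 after quantile normalization, 15 without siCtrl 2 and 12 without siMITF 2, 1 with no filter and 63 with a filter at the 60th percentile. In contrast the proteasome, a set of bright genes as well (median signal 1440), fell in 27 of 43 and rose in none (median -0.28). PSMD12 and PSMD14 of the regulatory particle were at -0.64 and -0.54, the assembly chaperones PSMG3 and PSMG1 at -0.63 and -0.61, and the inducible subunit PSMB9 at -0.51 (0.010 with the mean of its probe sets).

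Other bright housekeeping families were counted beside the 43.7% and 49.5% called lower among all tested genes in the 2 brightest signal bins. Translation initiation genes fell in 20 of 48 and rose in 1 (median -0.18), with the cap-binding EIF4E at -0.68 and both EIF2S1 and EIF2S2 near it at -0.62 and -0.61. Nuclear pore genes fell in 17 of 31 and rose in none (median -0.27), with NUP155 at -0.60 and NUP50 at -0.59. Splicing factors fell in 44 of 103 and rose in 3 (median -0.11). After quantile normalization these falls numbered 15 for the proteasome, 7 for initiation, 9 for the pore and 28 for splicing, and the rises 2, 7, 3 and 17. The pore count was also 9 without siCtrl 2 and 9 without siMITF 2.

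**Figure D3:**
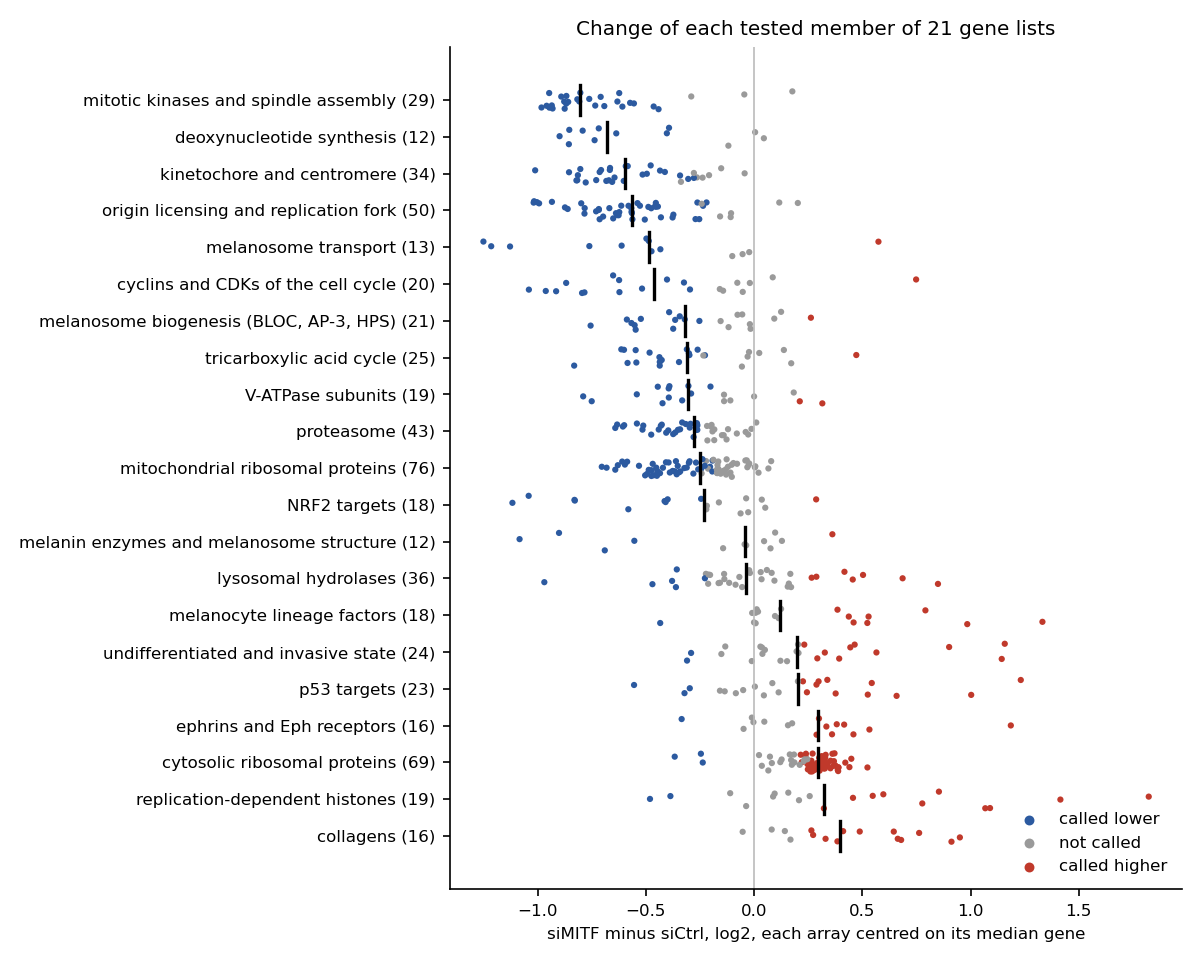
Change of siMITF against siCtrl (log2, centred, x axis) of each tested member of 21 gene lists, with the number of tested members in brackets; each point is a gene, blue if called lower, red if called higher and grey if neither, spread vertically at random, and black bars are list medians. Medians run from -0.80 for mitotic kinases and spindle assembly to 0.40 for collagens.

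The 39 genes higher on both scales include several regulators of transcription. KLF9, a zinc finger factor that responds to glucocorticoids, had signals of 258 and 319.7 with siCtrl and 664 and 537 with siMITF. Both siMITF arrays exceeded both controls, with a change of 1.65 relative to the median gene and 1.01 as deposited (limma adjusted p = 0.000275). CEBPD was at 1.70, the nuclear receptor coactivator PNRC1 at 1.36, the Notch coactivator MAML3 at 1.34, DLX2 at 1.21 and NFATC2 at 1.20. The arrestin-like ARRDC3, which promotes receptor endocytosis, went from 46.2 and 60.9 to 120 and 95.7 (1.47). YPEL2 went from 164 and 186 to 462 and 303 (1.66) and RETREG1, a receptor for autophagy of the endoplasmic reticulum, was at 1.38.

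Cell surface and secreted proteins were also among these 39. NRCAM, an adhesion molecule of neurons and glia, had 32.2 and 45.2 with siCtrl and 106 and 81.1 with siMITF (1.63). The opsin OPN3 went from 82.8 and 109.6 to 234 and 178 (1.62). The sulfate transporter SLC26A2 went from 1146 and 1390 to 2152 and 1697 (1.23) and the protease inhibitor SERPINE2 from 2576 and 3199 to 4484 and 3872 (1.17). For each of these 4 genes the siMITF arrays lay above the siCtrl arrays without overlap. Smooth muscle actin ACTA2 was at 1.57, the matrix protein EDIL3 at 1.40, OLFML2A at 1.49, SLITRK2 at 1.44, the proteoglycan SDC3 at 1.19 and the ephrin EFNA1 at 1.19. The deposited changes of these 6 ran from 0.55 for EFNA1 to 0.94 for ACTA2. Another probe set gave a smaller change relative to the median gene for SDC3 (0.33), EFNA1 (0.69) and SLITRK2 (0.77). The array offsets differed by -0.63, so a relative change under 0.63 is a decrease as deposited. The other SDC3 probe set thus decreased as deposited, as did the lowest of 5 other SERPINE2 probe sets (0.59). Protein kinase C alpha, PRKCA, had 134 and 147 with siCtrl and 254 and 193 with siMITF (1.24). Another PRKCA probe set was at 0.39, also a decrease as deposited. The phosphodiesterase PDE7B went from 51.5 and 57.6 to 106 and 95.5 (1.36), and the adhesion protein FLRT3 from 44.1 and 55.9 to 93.8 and 72.8 (1.22), again with no overlap.

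Collagen and basement membrane genes rose relative to the median gene, mostly from dim signals. Of 16 tested collagen genes 12 rose and 0 fell (median 0.40, deposited -0.23). Their median signal was 65.8, 87.5% of them lay in the dimmest 2 of the 5 signal bins, and 9 rose after quantile normalization and 6 with no filter. COL5A2 went from 85.2 and 101 to 128 and 112 (0.95) and COL4A1, of basement membrane, from 110.4 and 131 to 168 and 133 (0.91). The siMITF arrays of both genes were above the siCtrl arrays, though neither gene was called on the deposited scale. Of 13 laminin and basement membrane genes 6 rose, with LAMC1 at 0.86 and LAMB2 at 0.75, and 2 fell, with LAMA1 at -0.59. The median signal of that list was 103, and 6 rose after quantile normalization and 2 with no filter. Of 24 proteoglycan and matricellular genes 11 rose, among them GPC6 (1.11), and 5 fell, among them the hyaluronan synthase HAS2 (-1.38) and CCN3 (-0.48). The falls were 3 without siCtrl 1, siMITF 1 or siMITF 2, and the rises 6 with no filter.

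In the guidance families, 9 of 16 ephrin and Eph genes rose and 1 fell (median 0.29). Their median signal was 70.5, and 5 rose after quantile normalization or without siCtrl 2, 4 without siMITF 2 and 2 with no filter. Of 27 semaphorins and plexins 8 rose (5 without siMITF 2 or with no filter) and 3 fell. Their median signal was 115, and 8 rose and 5 fell after quantile normalization. SEMA3C had signals of 185 and 209 with siCtrl and 326 and 248 with siMITF (1.13). SEMA4B had 98.8 and 143 with siCtrl and 181 and 152 with siMITF (1.06), and in both genes the siMITF arrays were the higher ones. The receptors PLXNC1 and PLXNA1 fell (-0.65 and -0.47, with another PLXNA1 probe set at 0.21) and PLXNB1 and PLXNB2 rose (0.83 and 0.57). The neural crest cadherin CDH19 was at 1.14 and the glial marker S100B at 0.90, the latter from 1383 and 1794 to 2068 and 1740, values that overlap. In the integrin list, which also holds integrin-binding proteins, 5 fell and 5 rose of 22, with ITGA6 at -0.66 and ITGA2 at 0.84. These shares (22.7% each) were near the 24.7% lower and 19.5% higher over all tested genes.

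Most markers of other cell types lay below the signal cut. Of 7 fibroblast markers 4 passed the signal cut, and COL1A1, COL1A2 and COL3A1 did not. The markers summed to 1584 and 1922 on the siCtrl arrays and to 1020 and 767 on the siMITF arrays, most of it LUM. Relative to the median gene 2 of the 4 tested rose and 1 fell (median 0.20). The part of other cells in the collagen rises was not tested. Of 7 keratinocyte markers only KRT10 passed the cut, of 7 leukocyte markers only CD68, and of 4 endothelial markers VWF and KDR. Of 9 melanocyte markers 8 were tested, with summed signals of 28303 and 32645 with siCtrl and 22040 and 17760 with siMITF, and DCT had no probe set with 1 symbol.

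Signalling genes gave mixed counts. In the MAPK feedback list 5 of 21 fell (23.8%, against 24.7% over all tested genes), with DUSP10 at -0.75 and DUSP4 at -0.42. Fewer fell without siCtrl 1, siMITF 1 or siMITF 2. Rises were 3 (14.3%, against 19.5%), with SPRY4 at 0.58, and 9 after quantile normalization. DUSP6 had no call (0.20). Of 25 immediate early genes 7 fell (28%), with FOS at -0.67, and 9 rose (36%), with NR4A2 at 0.58 (4 rose with no filter). In the list of ID, HES and HEY factors, which repress transcription or block other helix-loop-helix factors, 6 of 11 fell, with BHLHE41 at -0.77, HEY2 at -0.75 and HES6 at -0.66. Of 30 interferon-stimulated genes, a list that short RNA duplexes can induce, 11 rose and 5 fell (median 0.14), with IFITM3 at 0.87 and ISG15 at 0.26. Their median signal was 75.7, and 6 rose and 6 fell after quantile normalization. Rises numbered 6 without siMITF 1, 7 without siMITF 2 and 4 with no filter. Of 285 tested zinc finger genes named ZNF, mostly repressors, 83 rose and 28 fell (median 0.14). After quantile normalization 62 rose and 32 fell, and with no filter 16 rose and 43 fell. Their median signal was 79.2. Without 1 library the rises were 49 (siCtrl 2), 51 (siMITF 1) and 41 (siMITF 2), and the falls 12 (siCtrl 2) and 18 (siMITF 2).

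In metabolism outside mitochondria, the hypoxia list had 10 rises and 3 falls of 20 (median 0.23), with NDRG1 at 0.71, the glucose transporter SLC2A1 at 0.62, HIF1A, whose transcription MITF is known to drive, at -0.35 and ADM at -0.84. In glycolysis PFKFB3, which activates phosphofructokinase, was at -0.80 and ALDOC at 1.03, and 13 of 21 genes had no call. Cholesterol synthesis had 8 falls, with IDI1 at -0.88 and HMGCS1 at -0.61, and 5 rises among 24, and 4 falls without siCtrl 2, 5 without siMITF 2, and 3 rises without siCtrl 1 or siMITF 1 and 0 with no filter. SLC19A2, a thiamine transporter, had signals of 712 and 906 with siCtrl and 266 and 203 with siMITF (-1.09). It was the strongest fall among 235 solute carriers, of which 66 fell (28.1%) and 36 rose (15.3%). These shares were near those over all tested genes (24.7% and 19.5%). Both counts were smaller without siCtrl 2 or siMITF 2, and 11 rose with no filter.

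Among the 24 strongest falls, ESRP1, an epithelial splicing factor, had signals of 407 and 530 with siCtrl and 134 and 94.4 with siMITF (-1.27). MZT1, which helps to anchor microtubules at the spindle pole, had 559.5 and 785 and 206 and 148 (-1.20), and LYPLA1, a depalmitoylating enzyme, 397 and 540.3 and 146 and 106 (-1.14). In each of the 3 genes the siMITF arrays were well under the controls, and no other probe set had the opposite sign. The nuclear receptor NR4A3 was at -1.18, with another probe set at 0.13. ZNF114, PRADC1, HMGB3 and PI15 were at -1.17, -1.11, -1.09 and -1.08.

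The knockdown was set against the THZ1 comparison by a limma contrast of the 2 changes, which share no arrays. The siMITF change lay below the THZ1 change for 2557 genes (21.4%) and above it for 2409 (20.2%). Below it were 33 of 36 complex I genes, 15 of 18 of ATP synthase, 32 of 43 of the proteasome, 19 of 25 of the citrate cycle and 14 of 19 of the V-ATPase. The medians of these lists were above 0 with THZ1, from 0.17 to 0.43. Also below were 18 of 29 mitotic kinase and spindle genes, whose median was -0.21 with THZ1, and 9 of 13 melanosome transport genes, with a THZ1 median of 0.19. Above the THZ1 change were 13 of 18 lineage factors, 143 of 285 zinc finger genes and 13 of 23 p53 targets. Lineage factors had a median of -0.33 with THZ1, and zinc finger genes -0.25. For single genes, KLF9 was at -1.02 with THZ1 (limma adjusted p of the difference = 2.21e-06), DDIT4 at -0.62 (adjusted p = 1.7e-05) and PNRC1 at -0.50 (adjusted p = 2.32e-05). The conditions also differ in time and in the kind of agent.

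**Figure D4:**
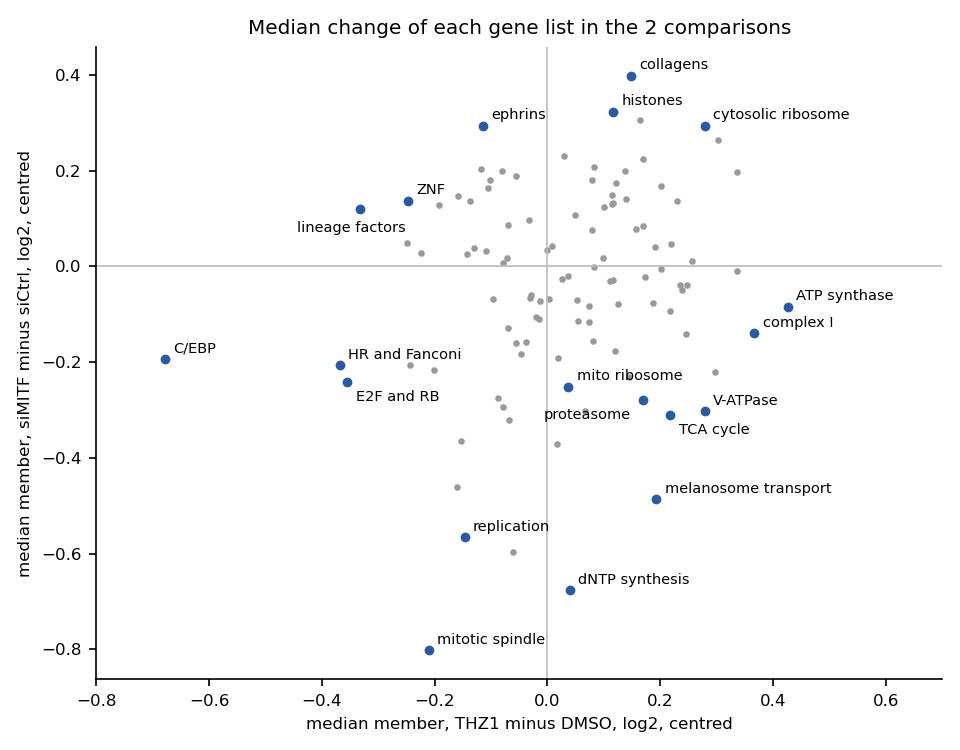
Median change of the tested members of each of 107 gene lists with at least 4 tested genes, for siMITF against siCtrl (y axis) and for THZ1 against DMSO (x axis), both log2 and centred; each point is a list and blue points are labelled. Mitotic spindle genes sit lowest at -0.80 for siMITF, and ATP synthase lies furthest right at 0.43 for THZ1.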

How the data were processed

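Signals were summarised with MAS5, per the submitters' processing notes, without a version. The deposited intensities, on a linear scale, were scaled by the authors to cell number (per the design text of the series), by a calculation that is not recorded. Of 49495 probe sets 45278 had 1 symbol, and 45208 of these matched the RefSeq table (GRCh38.p14) by gene ID. A gene was its brightest 1-symbol probe set, tested if its mean log2(signal + 16) over 8 arrays reached the 40th percentile of those probe sets, a signal of 39.2. This kept 11947 of 18244 genes. limma 3.58.1 in R 4.3.3 was fitted to all 8 arrays with 1 mean per group, and p-values were Benjamini-Hochberg adjusted over all tested genes (calls under 0.05). The fit was tested on simulated data. On the centred scale each array's median deviation of tested genes from their means over arrays was subtracted. On the deposited scale the prior degrees of freedom were infinite, so that every gene had the same SE of 0.25. Only 2 arrays per group limit the precision. Alternatives were other pseudocounts and filters, the mean of probe sets, quantile normalization, ERCC scaling, the siRNA arrays alone, each gene's own variance, a replicate block and leaving out each array. The members and lists were chosen with earlier results of these data known. Named genes were MITF, the 24 strongest changes per direction passing on both scales with siMITF arrays outside the siCtrl range (some of the strongest are not described), up to 4 genes per list and direction by lowest adjusted p, and others for their role. Promoters shown were the 3 strongest falls by adjusted p, in each of 2 groups of lists, whose window held the motif.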

Additional observations from a re-analysis of the deposited data

How the results depend on the processing

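The direction and call of 242 named genes other than MITF were kept in 3703 of 3830 gene and alternative pairs. The other pairs were 74 lost calls, 48 gained calls and 5 reversals. CCND3 became 0.21 with the mean of probe sets and 0.24 after quantile normalization, CDK6 0.21 after quantile normalization, MCL1 -0.23 and PSMB9 0.010 with the mean of probe sets, and the cause was not tested. Without 1 array, falls relative to the median gene ran from 1896 to 2626 and rises from 1349 to 1964, deposited falls from 1745 to 7524 and rises from 15 to 26, and the counts against THZ1 from 1909 to 2401 lower and 1991 to 2182 higher. MITF then ran from -0.87 to -0.58, or -1.64 to -1.07 as deposited, and the shift of the median gene from -0.77 to -0.49. With own variance, relative rises were 1423, deposited calls 0 and 0, and the deposited MITF change of -1.35 had a limma adjusted p of 0.0893. Quantile normalization, which removes the shift by construction (0.015), gave 1877 deposited falls and 2653 rises. Deposited rises were 23 with the mean of probe sets, 21 with ERCC scaling and 60 with the siRNA arrays alone, and rises against THZ1 were 1497 with no filter. The replicate block gave 2798 relative falls and 2339 rises, 8473 deposited falls and 52 rises. Arrays of the same number moved apart (r = -0.18 across genes, which are not independent), and the crossed pairing, chosen after seeing the data, gave 3008 and 2518 relative and 11015 and 120 deposited calls. Among the small counts, falls were 1 without siCtrl 2 in the p53, hypoxia and invasive state lists (1 without siMITF 1 in the p53 list, 1 without siMITF 2 in the other 2), rises of mitochondrial biogenesis factors 1 without siCtrl 1, siCtrl 2 or siMITF 2, and rises of V-ATPase and lysosomal membrane genes 0 without siMITF 2. The 2 arrays per group limit what the tests can show.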
